A study of Homo sapiens with 24 samples.

Results

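The genes described here are 10 genes of microRNA production and silencing, chosen by name. EIF2C1, EIF2C2, EIF2C3 and EIF2C4, older symbols of AGO1 to AGO4, encode the Argonaute proteins. DROSHA, XPO5, DICER1 and TARBP2 act in the making and export of microRNA precursors, and TNRC6A and TNRC6B encode scaffolds that bind Argonaute. All 10 were listed in each of the 4 deposited tables, of 16742 genes listed in 1 or more tables and 13107 listed in all of them.

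MicroRNAs are cut from long nuclear transcripts by the DROSHA complex, carried to the cytoplasm by XPO5 and cut again by DICER1 with its partner TARBP2. An Argonaute protein then holds the short strand and finds matching messages, and a TNRC6 protein bound to it brings in the enzymes that shorten and uncap those messages. EIF2C2 is the Argonaute best known for cutting fully matched targets in human cells.

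Total RNA of cultured human lines was sequenced in 24 libraries, 3 from each of 8 lines. HCT116 is a near-diploid colon carcinoma line, RPE1 is a retinal pigment epithelial line immortalized with hTERT, and an asterisk marks lines with a stably expressed histone H2B joined to GFP. HCT116 5/4 carries chromosome 5 in 4 copies and is paired with HCT116, both from another laboratory, while HCT116* 8/3 c7 is clone 7 of a microcell transfer into HCT116* and carries 3 copies of chromosome 8. RPE1 5/3 12/3, paired with RPE1, has trisomies of chromosomes 5 and 12, of which the chromosome 12 gain arose without transfer, and RPE1* 21/3, paired with RPE1*, has a trisomy of chromosome 21. Each aneuploid line is 1 line, so its 3 libraries are not separate gains, and no label says that they came from separate cultures.

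Each table gives 1 mean normalized count per gene, pooled by the authors over the 3 libraries of an aneuploid line and the 3 of its parental line. These pooled means carry no SD, and no test was made. They give the level of a gene in a pair of lines, and the contrast of an aneuploid line with its parental line was not analysed here. The means of a table summed to between 18889290 and 23011803, over 14292 to 15610 genes. Because the tables were normalized separately, means of different tables are not on a common scale. Overlap or its absence, where read from these means, can change with scaling. The markers of the lines matched their labels in part. Of 10 colorectal markers, 7 had a mean of at least 10 in each HCT116 table, while VIL1, CDX1 and LGR5 were not listed there; 2 reached it in each RPE1 table, the keratin genes KRT8 and KRT18. EPCAM, an epithelial adhesion gene, had means of 4192 and 5683 in the HCT116 tables against 4.77 in the RPE1 5/3 12/3 table and no entry in the RPE1* 21/3 table. Of 8 retinal pigment epithelium markers, 3 reached a mean of 10 in each HCT116 table, 6 in the RPE1 5/3 12/3 table and 4 in the RPE1* 21/3 table. OTX2, a factor of the pigment epithelium, had means of 715 and 419 in the RPE1 tables and no entry in the HCT116 tables. MITF had 1439 and 1124 in the RPE1 tables against 67.4 and 62.0 in the HCT116 tables, and BEST1 had 42.7 and 41.3 against 7.50 and 2.62. RLBP1 was listed in the RPE1 tables alone, at 32.4 and 4.77. The pigment genes TYR and TYRP1 were not listed in any table, and RPE65, a visual cycle gene of that epithelium, was lower in the RPE1 tables (10.4 and 4.58) than in the HCT116 tables (287 and 194), as was the pigment cell gene PMEL (17.8 and 14.8 against 97.1 and 137).

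The promoters of 5 of these genes are shown: 3 Argonaute genes that are neighbours on chromosome 1, and the pair of TNRC6A and TNRC6B. EIF2C2 and TNRC6C, of the same families, were not looked up, and a link between promoter and level was not tested. The windows run from 250 bases before to 50 after the RefSeq start, in build GRCh38.p14 and on the + strand for all 5. They are chr1:35807766-35808065 for EIF2C4, chr1:35882959-35883258 for EIF2C1, chr1:35930855-35931154 for EIF2C3, chr16:24729401-24729700 for TNRC6A and chr22:40044584-40044883 for TNRC6B. Each window has 1 exact match on its chromosome in GRCh37, the build of the files (hg19). In that build the RefSeq start lies 13401 bases inside the GENCODE span of EIF2C1 and 119442 bases inside that of TNRC6A, and 0, 387 and 17 bases from the GENCODE start of EIF2C4, EIF2C3 and TNRC6B. Capitals mark matches on either strand to GGGCGG (the GC box of SP1), CCAAT (the CCAAT box), TGCGCA (the repeated core of the NRF1 site), CCGGAAG (the ETS core), CACGTG (the E-box) and TATAAA (the TATA box); matches may overlap by a base.
EIF2C4 promoter: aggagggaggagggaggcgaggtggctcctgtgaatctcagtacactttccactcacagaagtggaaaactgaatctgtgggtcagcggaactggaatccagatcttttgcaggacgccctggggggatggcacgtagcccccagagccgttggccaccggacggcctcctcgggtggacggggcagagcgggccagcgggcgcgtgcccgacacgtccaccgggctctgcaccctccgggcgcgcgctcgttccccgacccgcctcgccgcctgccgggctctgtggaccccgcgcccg
EIF2C1 promoter: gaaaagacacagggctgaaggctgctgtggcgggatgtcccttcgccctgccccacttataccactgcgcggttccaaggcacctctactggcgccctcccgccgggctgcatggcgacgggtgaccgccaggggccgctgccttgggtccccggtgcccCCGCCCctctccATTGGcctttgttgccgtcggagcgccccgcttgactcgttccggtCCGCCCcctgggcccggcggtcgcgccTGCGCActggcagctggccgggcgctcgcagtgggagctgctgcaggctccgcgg
EIF2C3 promoter: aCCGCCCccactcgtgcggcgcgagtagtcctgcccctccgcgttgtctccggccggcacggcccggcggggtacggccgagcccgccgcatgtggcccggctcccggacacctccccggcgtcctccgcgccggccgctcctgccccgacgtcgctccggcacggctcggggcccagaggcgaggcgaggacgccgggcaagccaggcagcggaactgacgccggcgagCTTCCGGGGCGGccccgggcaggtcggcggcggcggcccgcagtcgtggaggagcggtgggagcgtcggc
TNRC6A promoter: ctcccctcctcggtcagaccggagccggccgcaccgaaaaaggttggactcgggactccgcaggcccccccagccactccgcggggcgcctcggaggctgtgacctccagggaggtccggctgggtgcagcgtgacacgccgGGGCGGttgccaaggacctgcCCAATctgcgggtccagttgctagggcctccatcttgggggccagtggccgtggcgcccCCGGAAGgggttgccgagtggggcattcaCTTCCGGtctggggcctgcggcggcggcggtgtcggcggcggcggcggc
TNRC6B promoter: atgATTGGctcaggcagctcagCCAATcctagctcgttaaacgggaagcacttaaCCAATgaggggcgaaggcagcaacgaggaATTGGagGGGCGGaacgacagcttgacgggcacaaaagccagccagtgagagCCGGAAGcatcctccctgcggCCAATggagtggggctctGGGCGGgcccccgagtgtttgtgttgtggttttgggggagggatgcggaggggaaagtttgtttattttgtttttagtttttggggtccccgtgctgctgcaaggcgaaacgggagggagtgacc

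Of 35116 RefSeq promoter windows, 45.0% hold GGGCGG, 34.6% CCAAT, 10.3% CCGGAAG, 8.24% TGCGCA, 7.26% CACGTG and 11.5% TATAAA on either strand. The EIF2C4 window holds none of the 6 motifs. The EIF2C1 window holds 2 GC boxes, 1 CCAAT box and 1 TGCGCA, and the EIF2C3 window 2 GC boxes and 1 ETS core. The TNRC6B window holds 5 CCAAT boxes, 2 GC boxes and 1 ETS core, against 1, 1 and 2 in the TNRC6A window. GC content was 57.3% in the TNRC6B window and 73.7% in the TNRC6A window, and 69.0%, 72.3% and 80.0% in those of EIF2C4, EIF2C1 and EIF2C3. A match is a run of letters and not a measured site.

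EIF2C4, EIF2C1 and EIF2C3 lie on the + strand of chromosome 1 in that order, within 264485 bp (chr1:36273617-36538101 in GRCh37, GENCODE annotation). The annotated ends leave 11917 bp between EIF2C4 and EIF2C1 and 185 bp between EIF2C1 and EIF2C3. In bulk RNA, fewer cells with a transcript and less of it per cell cannot be told apart. EIF2C1 had pooled means of 1870 in the HCT116 5/4 table, 2932 in the HCT116* 8/3 c7 table, 1158 in the RPE1 5/3 12/3 table and 988 in the RPE1* 21/3 table. Both HCT116 values lie above both RPE1 values. EIF2C3 had means of 317, 373, 268 and 202 in the same order of tables, again with the HCT116 values above. EIF2C4 had 543, 463, 561 and 495, and its tables of HCT116 and RPE1 overlap.

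EIF2C2, on the minus strand of chromosome 8 (chr8:141530255-141645732), had means of 1093 and 1273 in the HCT116 tables and 467 and 353 in the RPE1 tables. The lower HCT116 value was more than the higher RPE1 value, with no overlap.

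**Figure D1:**
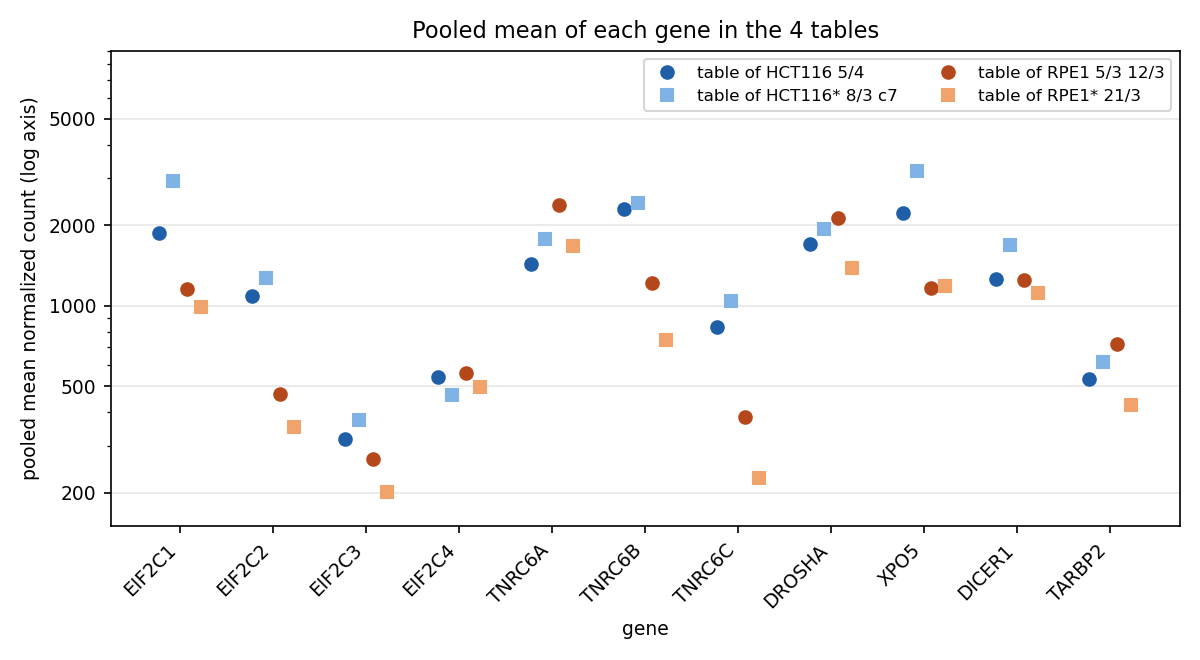
Pooled mean normalized count, on a log axis, of the 10 genes and TNRC6C in each of the 4 tables, with no error bars because each point is 1 mean over 6 libraries. The tables were normalized separately. The HCT116 points of EIF2C1, EIF2C2, XPO5 and TNRC6B lie above the RPE1 points, while those of EIF2C4, DROSHA, TARBP2 and TNRC6A interleave.

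Levels of different genes were compared per kilobase of annotated exon. Per kilobase, EIF2C1 was the highest of the Argonaute genes in every table, with 133 and 209 in the HCT116 tables and 82.5 and 70.4 in the RPE1 tables. EIF2C3 was the lowest, from 9.55 to 17.6 over the 4 tables, and the lowest of all 10 genes. EIF2C4, at 62.4 to 75.6, was close to EIF2C1 in the RPE1 tables, where the values were 75.6 and 66.7. Without division by length EIF2C4 was further below EIF2C1 there, at means of 561 and 495 against 1158 and 988. Both places of EIF2C1 and EIF2C3 were the same with the longest and with the canonical transcript as the length. As percentages of the summed Argonaute level per kilobase, EIF2C1 took 45.9% and 56.6% in the HCT116 tables and 41.2% and 41.7% in the RPE1 tables. The share of EIF2C4 was 25.2% and 16.9% in the HCT116 tables against 37.8% and 39.5% in the RPE1 tables. That of EIF2C2 was 23.8% and 21.8% against 14.7% and 13.2%. EIF2C2 thus stood above EIF2C4 in the HCT116* 8/3 c7 table and below it in both RPE1 tables, and in the HCT116 5/4 table their order depended on the length used. EIF2C3 held 4.78% to 6.32% in all 4 tables.

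**Figure D2:**
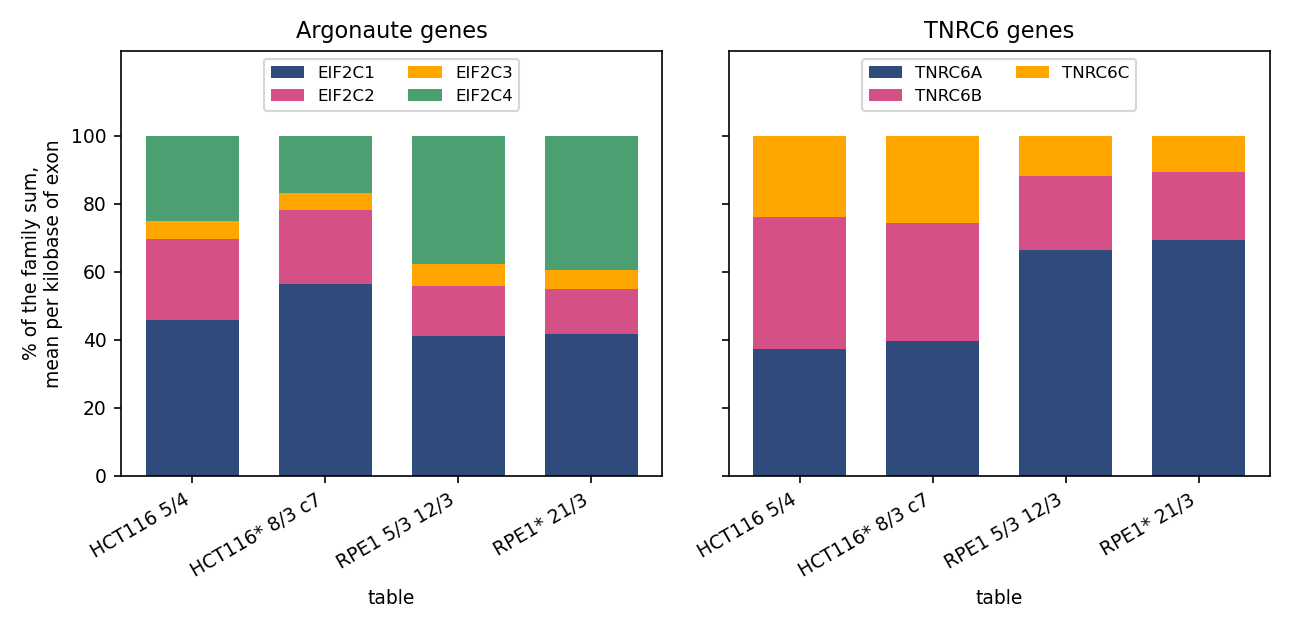
Share of each gene, in % of the family's summed mean per kilobase of exon, in each of the 4 tables, for the Argonaute genes (left) and the TNRC6 genes (right). The EIF2C4 and TNRC6A segments are larger in both RPE1 tables, where TNRC6A reaches 66.3% and 69.4%.

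TNRC6A, on chromosome 16 (chr16:24621530-24838953), had pooled means of 1435 and 1784 in the HCT116 tables and 2390 and 1668 in the RPE1 tables, and the values of the lines overlap. TNRC6B, on chromosome 22 (chr22:40440821-40731812), had 2306 and 2416 in the HCT116 tables against 1213 and 743 in the RPE1 tables, and the lines do not overlap. TNRC6C, the remaining TNRC6 gene and outside the 10, had 830 and 1042 against 385 and 227. Per kilobase, TNRC6A took 37.2% and 39.5% of the family sum in the HCT116 tables and 66.3% and 69.4% in the RPE1 tables. TNRC6B took 38.8% and 34.7% in the HCT116 tables and 21.8% and 20.1% in the RPE1 tables. TNRC6A was thus 3.04 and 3.46 times TNRC6B per kilobase in the RPE1 tables and 0.96 and 1.14 times in the HCT116 tables. In the HCT116 5/4 table the order of this pair turned with the longest or the canonical transcript as the length. The TNRC6C value has a limit of its own. Its exons share 1426 bp of 11634 with TMC6 on the opposite strand, and TMC6 had means of 1823 and 1786 in the HCT116 tables and 15.8 and 15.2 in the RPE1 tables. The counting options the study gives name no strand, which leaves featureCounts at its unstranded default, so reads of the strands cannot be told apart over the shared bases. Whether such reads were added to the TNRC6C value or left out of it was not tested.

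DROSHA, the nuclear nuclease (chr5:31400601-31532303), had pooled means of 1704 and 1944 in the HCT116 tables and 2128 and 1391 in the RPE1 tables. The RPE1 values lie on both sides of the HCT116 values. XPO5, the export receptor for precursors (chr6:43490072-43543775), had 2223 and 3189 in the HCT116 tables and 1165 and 1186 in the RPE1 tables, with no overlap. Its exons share 348 bp, 4.10% of their length, with POLR1C, a polymerase subunit gene on the opposite strand, which had means of 865 and 1155 against 443 and 379. DICER1, the cytoplasmic nuclease (chr14:95552565-95624347), had 1263 and 1689 in the HCT116 tables and 1252 and 1116 in the RPE1 tables, so that the nearest values of the lines lie close together. DICER1 shares 80 bp of exon with its antisense gene DICER1-AS1, whose mean was at most 48.0 in any table. TARBP2, the double-stranded RNA binding partner of DICER1 (chr12:53894705-53900215), had 533 and 615 in the HCT116 tables and 719 and 427 in the RPE1 tables, and the lines overlap. Its exons share 541 bp, 13.2% of their length, with a long noncoding RNA gene on the opposite strand that no table lists. The exons of EIF2C1, EIF2C2 and EIF2C3 share 2.82%, 0.30% and 0.41% of their length with other genes that no table lists.

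Per kilobase of exon, XPO5 was the highest of the 10 genes in both HCT116 tables (262 and 376), with each of the 3 lengths. DROSHA was highest in both RPE1 tables (274 and 179), but with the canonical transcript as the length TARBP2 was. DROSHA was between 3.28 and 4.84 times DICER1 per kilobase in the 4 tables, between 2.21 and 3.26 times with the canonical transcript as the length, and between 1.15 and 1.70 times without division by length. Ranked within a table among all genes at or above a mean of 10, the 10 genes spread from the 10.3 percentile per kilobase (EIF2C3, RPE1* 21/3 table) to the 81.6 percentile (XPO5, HCT116* 8/3 c7 table). DICER1 lay between the 33.0 and 39.3 percentiles and DROSHA between 68.2 and 74.4. The annotation is newer than the gene models that were counted and can hold longer 3′ ends, so values per kilobase depend on it.

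To set the HCT116 and RPE1 tables side by side, each mean was written as its share per 1000000 of the table's summed means. The mean log2 share of the RPE1 tables was then subtracted from that of the HCT116 tables. Each mean pools an aneuploid line with its parental line, so libraries with gained chromosomes are part of both sides. The tables were normalized separately, and the difference between the 2 tables of a parental line is the only measure of spread. Compared were the 12963 genes that all tables listed and that reached a mean of 10 in 1 or more. Their median difference was 0.37, and the 10 most abundant genes made up 8.83% and 8.67% of the sum in the RPE1 tables against 6.05% and 5.44% in the HCT116 tables. With median-of-ratios scaling the difference of every gene was lower by the same 0.36 and the median over all genes was 0.0052. Values on that scale are given second.

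EIF2C2 was 3.08 times higher in the HCT116 tables, a log2 difference of 1.62 (1.26 with median-of-ratios scaling), and lay at the 88.0 percentile of all genes. Its 2 HCT116 tables differed by 0.16 and its 2 RPE1 tables by 0.12 on the log2 scale. TNRC6B was 2.64 times higher (2.05 times). XPO5 had a log2 difference of 1.26 (0.90) and EIF2C1 one of 1.21 (0.85). EIF2C3 was higher by 0.65 (0.29). All 5 were higher in both HCT116 tables than in both RPE1 tables on either scale, by more than either difference within a line. On the share scale 6 of the 10 genes and 52.7% of all genes met this. With median-of-ratios scaling 5 of the 10 and 36.1% of all genes did.

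DICER1 was higher by 0.39 (0.03), near the median of all genes, and its lines overlapped with median-of-ratios scaling. The directions of EIF2C4 (0.01 and -0.35), DROSHA (0.17 and -0.20) and TARBP2 (0.13 and -0.23) turned with the scaling. TNRC6A was lower by 0.23 on the share scale, with overlapping lines, and by 0.60 with median-of-ratios scaling, without overlap. EIF2C4 was also without overlap, below, on the second scale.

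In counts, 6 of the 10 genes had both HCT116 tables above both RPE1 tables and 0 had them below, while 56.9% and 25.9% of all genes did. With a difference of at least 1 on the log2 scale, 4 were above and 0 below, against 24.2% and 11.2% of all genes. With median-of-ratios scaling, 5 were above and 2 below, where 40.1% of all genes lay on each side, and at a difference of at least 1 there were 2 above (EIF2C2 and TNRC6B) and 0 below, against 15.7% and 16.0%. The median difference of the 10 genes was 0.52 (0.16), beside 0.37 (0.0052) for all genes.

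**Figure D3:**
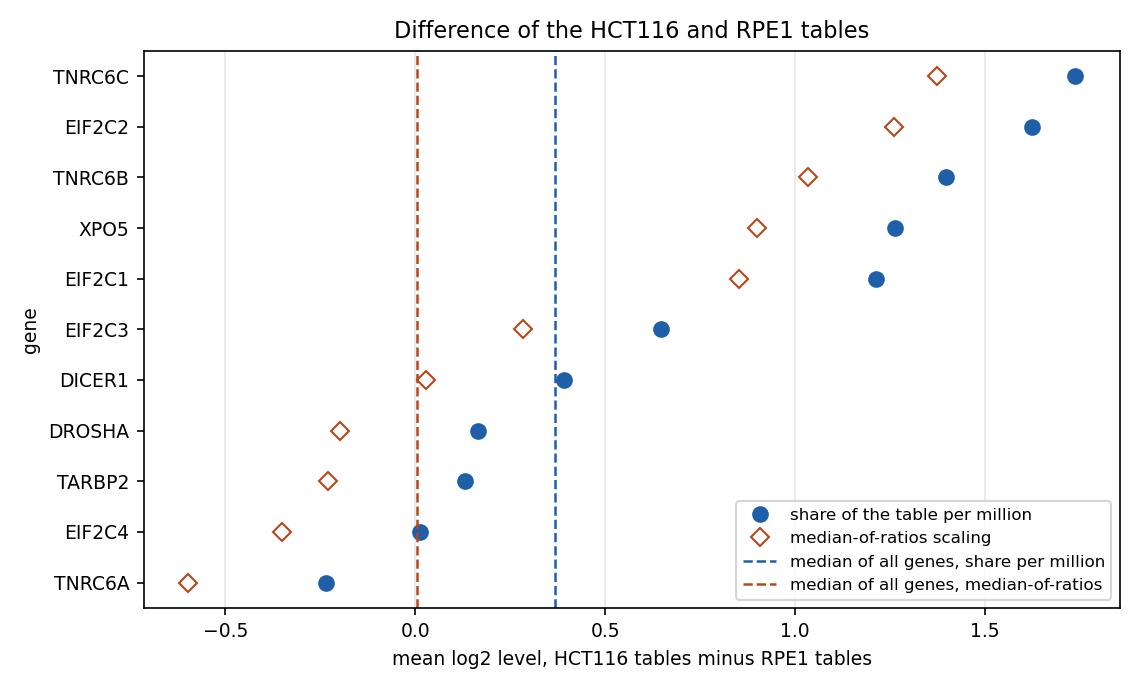
Mean log2 level of the HCT116 tables minus that of the RPE1 tables for each of the 10 genes and TNRC6C, as share per 1000000 (circles) and with median-of-ratios scaling (diamonds). Dashed lines mark the medians of all genes, 0.37 and 0.0052, and the circles of EIF2C2, TNRC6B, XPO5 and EIF2C1 lie at 1.21 or more.

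Some of the genes lie on chromosomes that one of the lines had gained. A pooled mean over libraries with 4 and with 2 copies of a gene would be 1.5 times that of 2 copies if its level followed copy number, which is 0.58 on the log2 scale; for 3 copies it would be 1.25 times, or 0.32. The genes of chromosome 5 were higher in the HCT116 5/4 table than in the HCT116* 8/3 c7 table by a median of 0.45 (551 genes). DROSHA, which lies there, was lower by 0.13 in this comparison, at the 14.5 percentile of the chromosome. In the RPE1 5/3 12/3 table DROSHA was higher than in the RPE1* 21/3 table by 0.33, beside a chromosome 5 median of 0.28, at the 58.1 percentile. TARBP2, on chromosome 12, was higher in that table by 0.47, beside a median of 0.28 over 665 genes, at the 82.9 percentile. EIF2C2, on chromosome 8, was higher by 0.16 in the HCT116* 8/3 c7 table than in the HCT116 5/4 table, beside a chromosome 8 median of 0.15. The parental lines of the tables differ as well, so copy number and parental line cannot be told apart in these differences.

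Chromosome 8 as a whole was higher in the HCT116 tables than in the RPE1 tables, by a median of 0.79 (0.43) over 425 genes, beside 0.37 (0.0052) for all genes, and EIF2C2 lay at the 80.0 percentile of them. The libraries of HCT116* 8/3 c7, with 3 copies of chromosome 8, are part of the HCT116 side. On chromosomes without a gain in these lines, the largest difference among the 10 genes within a parental line was that of EIF2C1, lower by 0.59 in the HCT116 5/4 table. Its neighbour EIF2C4 was higher by 0.29 there and EIF2C3 lower by 0.18. XPO5 was lower by 0.46 in the HCT116 5/4 table and by 0.31 in the RPE1 5/3 12/3 table. TNRC6B was higher by 0.42 in the RPE1 5/3 12/3 table and gave -0.0091 in the HCT116 5/4 table minus the HCT116* 8/3 c7 table. The median size of the difference over the 10 genes was 0.22 for HCT116 and 0.18 for RPE1, and over all genes 0.21 and 0.17.

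**Figure D4:**
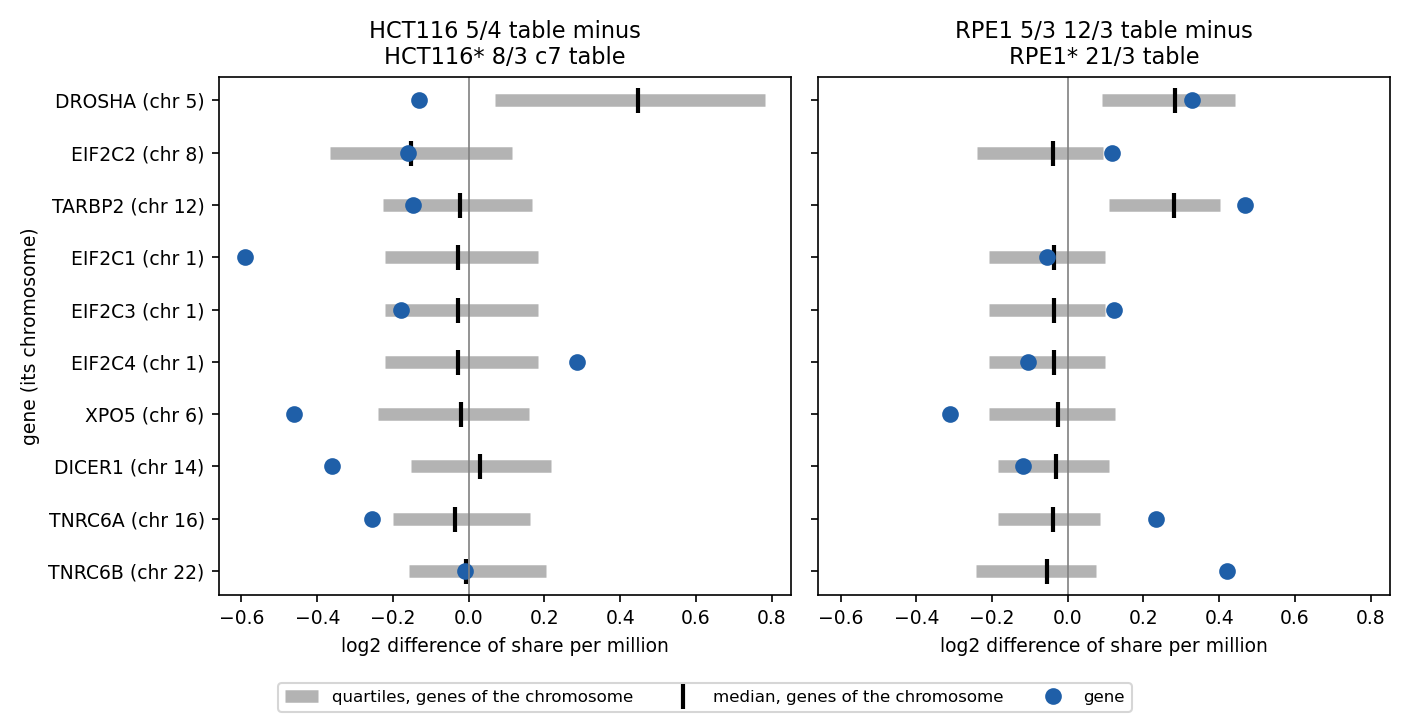
Log2 difference of share per 1000000 between the 2 tables of each parental line for the 10 genes (points), with the median (black mark) and quartiles (grey bar) of all compared genes on the same chromosome. DROSHA lies at -0.13 in the HCT116 panel, under the chromosome 5 median of 0.45, and at 0.33 in the RPE1 panel, beside a median of 0.28.

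The partners of these genes were taken from 11 lists with 62 genes in all, 52 of them outside the 10. Of the 4 microprocessor genes, the helicase DDX5 had the highest mean per kilobase over the 4 tables (1557) and DGCR8, the RNA-binding partner of DROSHA, the lowest (155). For export, RAN, the small GTPase that XPO5 needs, stood at 2305 per kilobase beside 229 for XPO5. Of DICER1 and its partners the RNA editing enzyme ADAR was the highest (707) and DICER1 the lowest (60.0). The low place of DICER1 depended on the division by length. Its undivided means of 1263, 1689, 1252 and 1116 lay above those of its partners TARBP2 and PRKRA in every table. The highest and lowest of each list were taken with the union of annotated exons as the length, and other lengths were not run for them.

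Of the 5 chaperones of Argonaute loading, HSP90AB1 (18521 per kilobase) and HSP90AA1 encode the HSP90 proteins and FKBP4 (768, the lowest) a co-chaperone. These 3 were higher in the HCT116 tables by 1.53, 1.48 and 1.93 on the log2 scale, and by 1.17, 1.11 and 1.57 with median-of-ratios scaling. On the share scale 5 chaperones were above, where 56.9% of all genes were, and with median-of-ratios scaling 4, where 40.1% were. HSPA8 overlapped on the second scale, and its share difference of 0.41 was smaller than the 0.55 between its RPE1 tables.

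Of the 11 deadenylase genes, the scaffold CNOT1 was the highest per kilobase (607) and the catalytic subunit CNOT6L the lowest (83.2), and CNOT6 and CNOT10 were higher in the HCT116 tables by 1.04 (0.68) and 1.21 (0.85). Of the 10 genes of decapping and decay from the 5′ end, LSM14A was the highest (616) and DCP1B the lowest (77.6). DCP2, the decapping enzyme, was higher in the HCT116 tables by 1.64 (1.28) and DCP1A, its activator, by 1.04 (0.68). Of the genes named here, DCP2 and CNOT6 lie on chromosome 5. In the HCT116 5/4 table DCP2 was higher by 0.63 and CNOT6 by 0.38 than in the HCT116* 8/3 c7 table. In the RPE1 5/3 12/3 table they were higher by 0.42 and 0.57 than in the RPE1* 21/3 table. DROSHA gave -0.13 and 0.33 in these comparisons.

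Of the 11 modifiers of microRNAs and precursors, 8 had a mean of at least 10 in all tables. Among these KHSRP was the highest per kilobase (1019) and DIS3L2, a nuclease for uridylated precursors, the lowest (45.8), and KHSRP was higher in the HCT116 tables by 1.05 (0.68). LIN28A, which blocks let-7 precursors, was listed at means of 3.66 and 6.32 in the HCT116 tables alone, LIN28B at 3.55 in the HCT116* 8/3 c7 table alone, and TRIM71 in none. Of the 4 Argonaute-associated RNA-binding genes, FXR1 was the highest (417) and FMR1 the lowest (100.2). Of the 4 PIWI genes, whose proteins are the germline relatives of the Argonautes, PIWIL1 and PIWIL3 were not listed. PIWIL2 had a mean of 3.49 in the HCT116* 8/3 c7 table alone, and PIWIL4 had 13.8, 11.3 and 6.05 in the tables other than RPE1* 21/3.

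Of the 45 listed genes outside the 10 that could be compared, 40 had both HCT116 tables above both RPE1 tables and 1 had them below, with a median difference of 0.59. With median-of-ratios scaling these were 26 and 4, with a median of 0.23. At a difference of at least 1 there were 9 above, and 5 with median-of-ratios scaling, where CNOT6, CNOT10, DCP1A and KHSRP fell short of it. Over all genes, 56.9% lay above and 25.9% below on the first scale, and 40.1% lay on each side on the second. The median difference of all genes was 0.37 on the first scale and 0.0052 on the second. At a difference of at least 1, 24.2% of all genes were above on the first scale and 15.7% on the second.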

How the data were processed

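RNA of 24 libraries was sequenced at 25000000 single reads of 100 bp each, per the labels. The authors trimmed reads with cutadapt, mapped them to hg19 with TopHat2 2.0.10, counted them on RefSeq exons with featureCounts 1.4.3 and fitted DESeq2 (version not given in the sources used here). The signal used is the deposited mean of the normalized counts over the 6 libraries of a table, made by the authors. The other 5 columns hold the authors' own comparison (log2 fold change, its standard error, a statistic, a p-value and an adjusted p-value) and were not used. Values of single libraries were not analysed here, so depth per sample cannot be read from them, no SD, interval or p-value is given, and no edgeR or other test was run.

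Means were scaled per 1000000 of the table's sum, or by median-of-ratios, and divided by the union of exons of GENCODE on GRCh37, which has a length for 94.4% of the genes (1480 by an older symbol). A minimum mean of 10 was set. Promoter sequences are from RefSeq. The calculation of the table comparison was run on simulated data, but no outcome is given here, so it gives no measure of error for these tables. Python 3.11.15, numpy 2.4.6, pandas 2.3.3 and matplotlib 3.10.9 were used. Alternatives were other lengths, scaling, a pseudocount of 1, no minimum and a minimum of 100. The genes and lists were chosen with earlier results of these data known. Named genes are the 10, TNRC6C, the highest and lowest per kilobase of each list, those under a mean of 10 or not listed, and those without overlap and a log2 difference of at least 1. Also named are genes of the deposited tables that share exons with the 10 or with TNRC6C.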

Additional observations from a re-analysis of the deposited data

How the results depend on the processing

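The place of each gene in the order per kilobase depended on the length: of 40 places over the 4 tables, 17 were kept with the longest transcript, 12 without division by length, and 13 with the canonical transcript, an alternative chosen after seeing the data. Without division by length the median share over the tables was 9.10% for EIF2C3 (5.41% per kilobase), 18.5% for EIF2C4 (31.5%) and 38.3% for TNRC6B (28.3%), and the median percentile of the 10 genes was 71.7 in place of 45.8. With median-of-ratios scaling the median difference of the HCT116 and RPE1 tables was 0.16 in place of 0.52, and 2 genes in place of 0 lay below in both HCT116 tables. That scaling lowers every gene's difference by the same 0.36, so it does not set the genes apart. With a pseudocount of 1 or without the minimum none of the 10 differences moved by more than the difference between tables of a line. By the same measure, median-of-ratios scaling moved 6 of the 10: EIF2C2, EIF2C3, EIF2C4, DROSHA, DICER1 and TNRC6A. Since the shift is the same for every gene, these 6 stand out only by smaller differences between tables of a line. It does not mark the rest as steadier. Levels per kilobase of single genes moved beyond the spread over the tables for 5 of the 10 genes with the longest transcript and 5 with the canonical one: in the HCT116 5/4 table TARBP2 went from 130 to 353, DICER1 from 57.0 to 122 and XPO5 from 262 to 418 with the latter. Apart from the ratio of DROSHA to DICER1, whose values under other lengths stand in the report, the other summary values run stayed within the spread over the tables. The other counts of the 10 genes, with a single setting changed, stayed within 1.5 times, as did the count of list genes above the minimum mean. With median-of-ratios scaling, the count above at a log2 difference of at least 1 was 2 in place of 4 for the 10 genes. For the 45 listed genes outside the 10 it was 5 in place of 9. Without that minimum, 26 of these 45 in place of 40 lay above and 4 in place of 1 below. No paired analysis was possible because the tables pool the libraries into 1 mean, and for the same reason no replicate could be left out.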
